A study of Mus musculus with 4 samples.

Results

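Solute carriers are membrane proteins that move small molecules across cell membranes. The members described here are the families that carry nutrients and organic molecules: sugars, amino acids, peptides, monocarboxylates, fatty acids, nucleosides, vitamins, choline, organic ions and steroids. They were chosen by name, as all gene probes on the array whose gene name starts with Slc1a, Slc2a, Slc3a, Slc5a, Slc6a, Slc7a, Slc15a, Slc16a, Slc19a, Slc22a, Slc23a, Slc27a, Slc28a, Slc29a, Slc36a, Slc38a, Slc43a, Slc44a or Slc51. This gave 154 genes with 251 probes, of 27344 gene names on the array. By this rule *Slc7a6os*, a gene on the strand opposite *Slc7a6* and not a transporter, is also a member.

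Colon epithelial cells take up what bacteria and digestion leave in the lumen, above all short-chain fatty acids, which enter by proton-coupled and sodium-coupled monocarboxylate carriers. Absorptive carriers sit on the mature colonocytes of the upper crypt and the surface, whereas the dividing cells of the crypt base import amino acids, sugars and nucleosides for growth. Several carriers work only as pairs: *Slc3a1* and *Slc3a2* are heavy chains that bring amino acid carriers of the Slc7a family to the membrane, and *Slc51a* and *Slc51b* together form the basolateral exporter of bile acids and steroids. R-spondin 3 is a secreted protein that strengthens Wnt signaling, and *Axin2* is a Wnt target gene.

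The genes were measured in 2 experiments, on 4 dual-color arrays of RNA from C57BL/6 mice, male and 6 to 8 weeks old. In the first, RNA of the colon (labelled distal colon) of *Myh11CreErt2/Rspo3* fl/fl mice (*Rspo3* KO), in which Cre is driven by the smooth muscle and myofibroblast gene *Myh11*, was set against RNA of *Myh11CreErt2/Rspo3* +/+ littermates, 2 weeks after tamoxifen (4 mg/25 g) in both. Each of the 2 arrays held 1 KO and 1 control mouse, with the dyes reversed, so that n = 2 pairs of mice. In the second, epithelial cells of *Axin2CreErt2/Rosa26-tdTomato* mice were sorted 24 h after tamoxifen into tdTomato positive (Axin2+) and negative (Axin2-) cells, pooled from 3 mice. The same 2 pools were on both arrays with the dyes reversed, which is 1 replicate, so the *Axin2* values have no replicate check and no test. A tdTomato positive cell had active Cre in the 24 h before, so the label marks cells by what they expressed then.

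A gene was measured if any of its probes passed the software's test for signal well above background on each array of the experiment. The test could be passed in either channel or both, and the brightest probe that passed was used. Of the 154 members, 100 were measured in colon of *Rspo3* KO and control mice, 104 in the sorted cells, 90 in both and 40 in neither. Every member that was not measured had failed this background test. Between 53.1% and 60.3% of the 43379 gene spots passed it in a channel. Ratios are log2(*Rspo3* KO/control) or log2(Axin2+/Axin2-), and 1.5-fold is 0.585 on this scale. Levels are log2 channel values, normalized between the arrays of an experiment, and are comparable only within a probe. Both probes of *Rspo3* were below background on the first KO array, and 1 was above background on the second with a log2 ratio of 0.17, so the depletion was not seen on the arrays. Whether these probes lie inside the deleted part was not analysed here. *Axin2* itself was higher in Axin2+ cells on both arrays (log2 ratios 1.35 and 1.30). In the sorted cells all 8 epithelial markers were measured, with 7 of 8 immune, 4 of 8 smooth muscle, 3 of 8 fibroblast, 3 of 7 neural and 1 of 6 endothelial markers.

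In *Rspo3* KO colon, 1 member passed the test. *Slc27a2*, a fatty acid transport protein that also activates very long-chain fatty acids, was 4.26-fold lower in KO mice. No other member of the 100 passed. By class, the median log2 ratio lay between -0.23 (4 vitamin carriers) and 0.15 (4 choline carriers), with 0.01 for the 39 amino acid carriers and -0.10 for the 12 monocarboxylate carriers. The median log2 ratio of the members was 0.01, against -0.01 over all 15384 genes measured. By limma with Benjamini-Hochberg adjustment over all genes, 0.26% of all genes were called (40 genes) and 0.117% were called lower in KO mice, beside 1 of 100 members. At an unadjusted p under 0.05, limma gave 8 of 100 members, beside 4.65% of all genes.

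The level of *Slc27a2* was 6.45 and 6.82 in the KO mice and 8.67 and 8.78 in the controls, on the log2 scale. The groups did not overlap, and the KO mouse was far lower in both pairs, with log2 ratios of -2.22 and -1.96. The mean was -2.09 ± 0.23 (limma's SE, n = 2 pairs, adjusted p = 0.0196), and the probe was above background in all 4 channels. The probe lies on chromosome 2 at 126413550 to 126413609 in the mm9 coordinates of the array annotation, and whether it lies in an exon or a UTR was not analysed here. Another 2 probes of the gene were below background on both KO arrays, so 1 probe carries this result. With the background fitted to all spots, spots with an outlying background included, the mean was -1.13 and limma's adjusted p was 1. With median centring in place of loess the mean was -2.10, yet limma's adjusted p was 0.895. The 250 bases before the RefSeq start site of *Slc27a2* (assembly GRCm38.p6) are shown as the upstream region of the one carrier called, and none of the motifs described with the carrier pairs further on is in it.
Slc27a2, chr2:126552774-126553023, plus strand: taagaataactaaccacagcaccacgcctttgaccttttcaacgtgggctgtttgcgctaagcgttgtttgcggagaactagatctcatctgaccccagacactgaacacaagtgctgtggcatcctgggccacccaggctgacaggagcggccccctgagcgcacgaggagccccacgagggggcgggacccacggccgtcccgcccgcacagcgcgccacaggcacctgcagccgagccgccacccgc

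A larger group met the limit the study's methods use, a 1.5-fold mean change with the 2 arrays of like sign. There were 8 of 100 such members, beside 4.32% of all genes. Of these, 6 were lower in KO mice (6%, beside 2.47% of all genes) and 2 were higher (2%, beside 1.85%). Apart from *Slc27a2*, none passed limma's adjusted p, so the values that follow are given as measured.

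Both members on the higher side take up nutrients at the apical membrane of the colon. *Slc5a8*, the sodium-coupled carrier of butyrate and other short-chain fatty acids, had levels of 14.66 and 14.57 in the KO mice and 12.82 and 13.83 in the controls. The groups did not overlap, with both KO mice alike and the first control lowest. The mean log2 ratio was 1.29 ± 0.30 (SE, n = 2 pairs, limma's adjusted p = 0.312), and it rested more on the first pair (1.85) than on the second (0.74). With median centring the mean was 1.32 but the 2 pairs no longer had the same sign. *Slc6a14*, a carrier of neutral and cationic amino acids, had levels of 12.17 and 12.75 in the KO mice and 11.52 and 11.96 in the controls. These did not overlap either. Its mean was 0.72 ± 0.23 (SE, n = 2 pairs, limma's adjusted p = 0.681). A dimmer probe of the gene had a mean of 0.57, but with opposite signs in the 2 pairs.

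**Figure D1:**
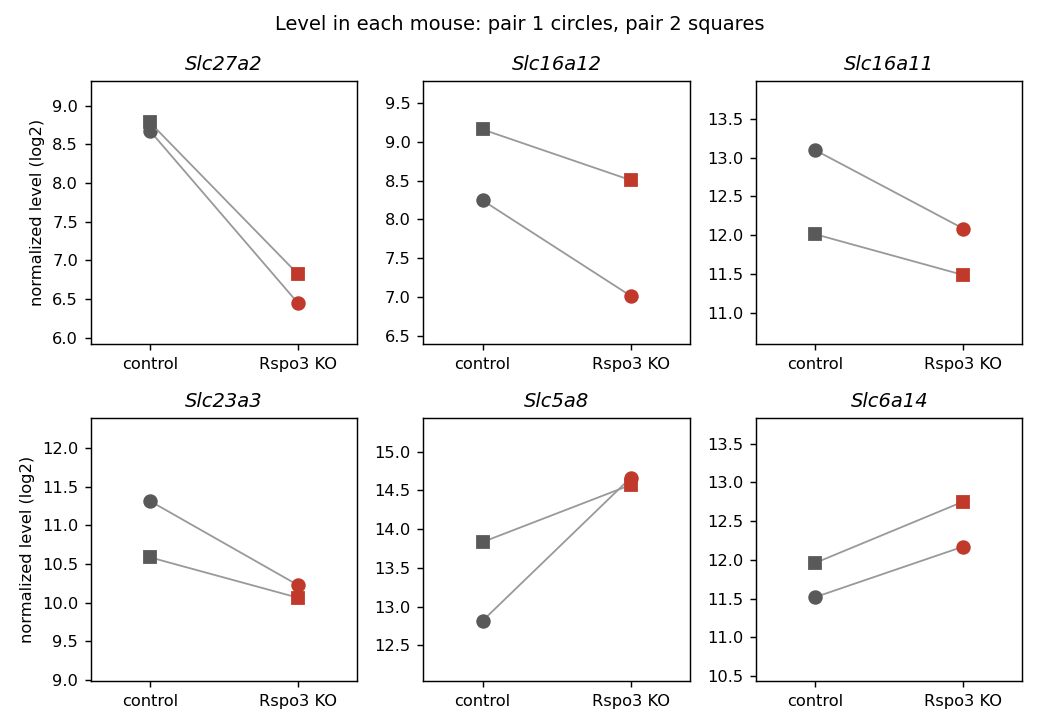
Normalized level (log2, vertical axis) of 6 carriers in control (grey) and Rspo3 KO colon (red), 1 point per mouse and 1 line per pair hybridised together, each panel with its own axis of equal height. Slc27a2 shows the steepest fall, from 8.67 and 8.78 to 6.45 and 6.82, and in Slc16a12 and Slc16a11 the groups overlap although the KO mouse is lower in both pairs.

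On the lower side with *Slc27a2* were 2 members of the monocarboxylate family. *Slc16a12*, a creatine carrier, had levels of 7.01 and 8.51 in the KO mice and 8.25 and 9.16 in the controls. The KO mouse was lower in both pairs, but the second KO mouse was above the first control, so the groups overlapped. Its mean log2 ratio was -0.94 ± 0.25 (SE, n = 2 pairs, limma's adjusted p = 0.454). *Slc16a11*, a member known from liver lipid metabolism, was likewise lower in the KO mouse of each pair (-1.01 and -0.53) with overlapping groups. Its limma adjusted p was 0.68.

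The other 3 on the lower side came from different families. *Slc23a3*, an orphan member of the ascorbate carrier family, had levels of 10.23 and 10.06 in the KO mice and 11.31 and 10.59 in the controls, with no overlap. Its mean log2 ratio was -0.80 (limma's adjusted p = 0.664). *Slc7a4*, a relative of the cationic amino acid carriers, had ratios of -0.59 and -0.88. *Slc2a5*, the fructose carrier, had -1.15 and -0.11, so that the first pair carried its mean of -0.63. Levels of KO and control mice did not overlap for 33 of 100 members, beside 28.1% of all genes.

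**Figure D2:**
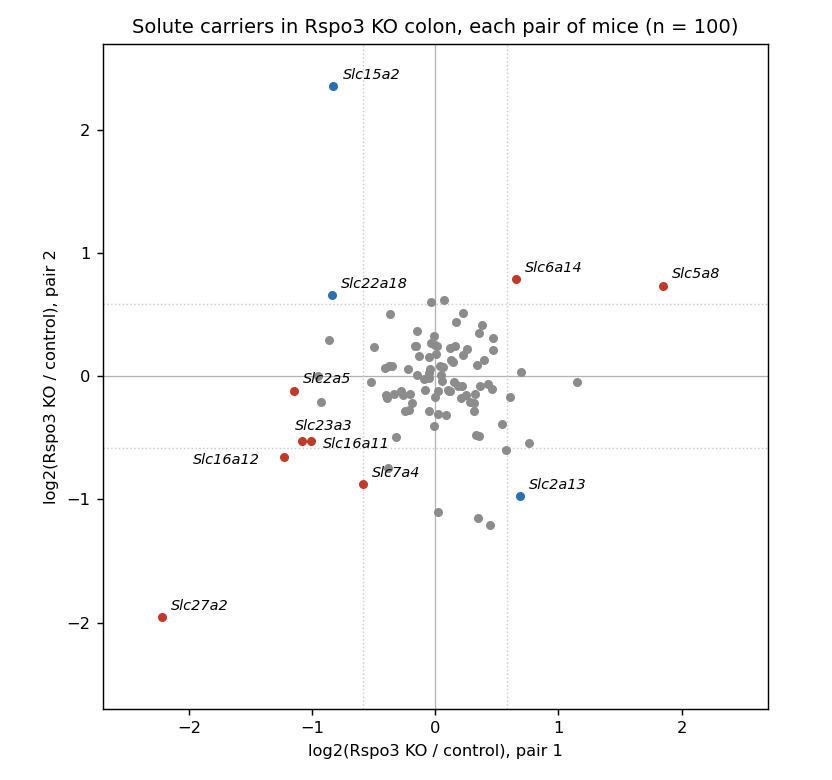
Each point is 1 of the 100 members measured in colon, with its log2(Rspo3 KO/control) in pair 1 (horizontal axis) and pair 2 (vertical axis). Dotted lines mark 1.5-fold, red points the 8 members past 1.5-fold on average with the same sign, and blue points the 3 past 1.5-fold in opposite directions. Slc27a2 lies alone at the lower left.

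For most members the pairs of mice did not give the same direction. The sign was the same in both pairs for 48 of 100 members, beside 44.2% of all genes. The ratios of the 2 pairs correlated with a Pearson's r of 0.15 across the 100 members and 0.03 across all genes; these are descriptions across genes, and all values of a pair come from 1 array and 1 dye orientation. *Slc15a2*, a peptide carrier, was 0.83 lower in the KO mouse of the first pair and 2.35 higher in that of the second, on the log2 scale. The control of the second pair was lowest of the 4 mice at 5.80, not well above background on that array, and another probe of the gene gave -0.37 and -0.04. *Slc2a13*, a proton-coupled inositol carrier, had 0.69 and -0.97, and *Slc22a18*, a member of the organic cation carrier family, had -0.84 and 0.66. These 3 are 3% of the members, beside 1.66% of all genes past 1.5-fold in opposite directions.

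Of the carriers of textbook colon transport, some had opposite signs in the 2 pairs and others like signs. *Slc44a1*, a choline carrier, had log2 ratios of 0.76 and -0.54, *Slc5a1*, the sodium-glucose carrier, had 0.57 and -0.60, and *Slc15a1*, the intestinal peptide carrier, had 0.34 and -1.15. *Slc29a1*, a nucleoside carrier, had -0.86 and 0.30, and *Slc5a6*, which takes up biotin and pantothenate, had 0.61 and -0.17. *Slc16a1*, the main proton-coupled carrier of butyrate and lactate, had -0.01 and -0.40 by its brightest probe, but its 3 measured probes ranged from -0.21 to 0.59 in their means. The heavy chain *Slc3a2* was slightly lower in both pairs (-0.21 and -0.15), as was its partner *Slc7a8* (-0.40 and -0.15), while *Slc7a5* had -0.35 and 0.09. *Slc1a5*, a glutamine carrier, *Slc22a5*, the carnitine carrier, and the glucose carrier *Slc2a1* had means of 0.05, -0.01 and 0.18. *Slc51b* was 0.38 and 0.42 higher in the KO mice on the log2 scale (limma's adjusted p = 1), and *Slc51a* was not measured in colon, since neither of its probes was above background on both arrays. *Slc6a19*, the neutral amino acid carrier of the small intestine, was not above background in either experiment.

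Some lists of cell type markers also differed between the pairs, and others did not. The 7 measured of 10 markers of surface colonocytes had a median log2 ratio of 0.62 in the first pair and -0.33 in the second, with a summed linear level of 59690 and 40130 in the KO mice and 38930 and 51030 in the controls. Of the 100 members, 30 had this pair of signs and 22 the reverse (30% with these signs, beside 29.4% of all genes). Of the 18 measured here that were past 1.5-fold lower in Axin2+ cells, 6 had these signs (33.3%, beside the same 29.4% of all genes). The reverse was seen in 1 of the 18, and in 4061 of all 15384 genes. The 10 crypt base markers had medians of -0.80 and -0.74. Of these, 6 of 10 were past 1.5-fold lower in the mean with the same sign, beside 2.47% of all genes. Their summed level was 21950 and 24130 in the KO mice and 37620 and 27590 in the controls. None passed limma's adjusted p, and 6 had an unadjusted p under 0.05 by limma, beside 4.65% of all genes. The 7 smooth muscle markers had medians of 0.24 and 0.21, and the 6 immune cell markers -0.79 and -0.02. The medians of the mean ratios were between -0.30 and 0.29 for epithelial, goblet, enteroendocrine, fibroblast, endothelial and neural markers. Of 7 enteroendocrine markers, 2 were past 1.5-fold lower alike (*Chga* and *Gcg*), 5 lower in both pairs and 1 higher in both. Outlier spots left out *Krt20*, *Aqp8* and *Guca2a* of the surface list. For the same reason only 5 of 8 epithelial and 5 of 9 goblet markers were measured. The part of these cell types in the members' ratios was not tested. In such bulk RNA, fewer cells of a type and less RNA per cell cannot be told apart. Of the partners of these carriers fixed as a list (scaffolds, chaperones, binding proteins and exporters), 24 were measured and none passed limma's adjusted p. At limma's unadjusted p under 0.05 there were 5 of 24, beside 4.65% of all genes. Past 1.5-fold on average with the same sign in both pairs, 4 of 24 were lower (beside 2.47%) and 0 higher (beside 1.85%). Among the 4 were the bile acid importer *Slc10a2* (-0.48 and -0.83), the scaffold *Pdzk1* (-1.08 and -0.40) and the peptidase *Dpp4* (-0.40 and -0.90). Of 25 genes of the amino acid response, 1 was past 1.5-fold alike (*Stc2*, higher), and of 17 genes of glycolysis none. The share of all genes was 4.32% in either direction.

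Of 104 members measured, 25 were past 1.5-fold on average with the same sign on both arrays (beside 14.8% of all 15887 genes), and most of them were lower in Axin2+ cells. Of these, 19 were lower (18.3%, beside 6.92% of all genes) and 6 were higher (5.77%, beside 7.86% of all genes). Past 2-fold, 11 were lower (10.6%, beside 2.52%) and 0 were higher (beside 1.7%). With median centring the split at 1.5-fold was 2 higher (beside 3.14% of all genes) and 16 lower (beside 3.72%). The median of all 104 members was -0.08, against 0.00 over all genes. Over the 104 members the arrays had a Pearson's r of 0.96, which is across genes and for the same RNA, so it covers the hybridisation and not the spread between mice.

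The lowest were the subunits of the bile acid and steroid exporter. *Slc51a* had levels of 9.94 and 9.88 in the Axin2+ channels and 12.32 and 12.35 in the Axin2- channels. Its mean log2 ratio was -2.42 ± 0.07 (SD over 2 arrays of the same RNA), or 5.36-fold lower in Axin2+ cells, and its other probe gave -2.30. *Slc51b* had levels of 8.41 and 8.46 in Axin2+ cells and 10.62 and 10.56 in Axin2- cells, 4.43-fold lower. *Slc10a2*, the apical importer of bile acids, which belongs to the list of partners, had log2 ratios of -2.81 and -2.07. Its direction was thus the same as that of the exporter.

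A further pair of subunits was lower as well. *Slc3a1*, the heavy chain of the cystine and dibasic amino acid carrier, had levels of 7.36 and 7.58 in Axin2+ cells and 9.17 and 9.30 in Axin2- cells, 3.40-fold lower. *Slc7a9*, the light chain it works with, had 6.56 and 6.82 against 7.65 and 8.15, 2.31-fold lower. The heavy chain *Slc3a2*, which serves the other light chains, showed no such difference, with log2 ratios of 0.13 and 0.00. Its light chains *Slc7a5*, *Slc7a6*, *Slc7a7* and *Slc7a8* had means of 0.05, 0.08, -0.15 and 0.33.

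**Figure D3:**
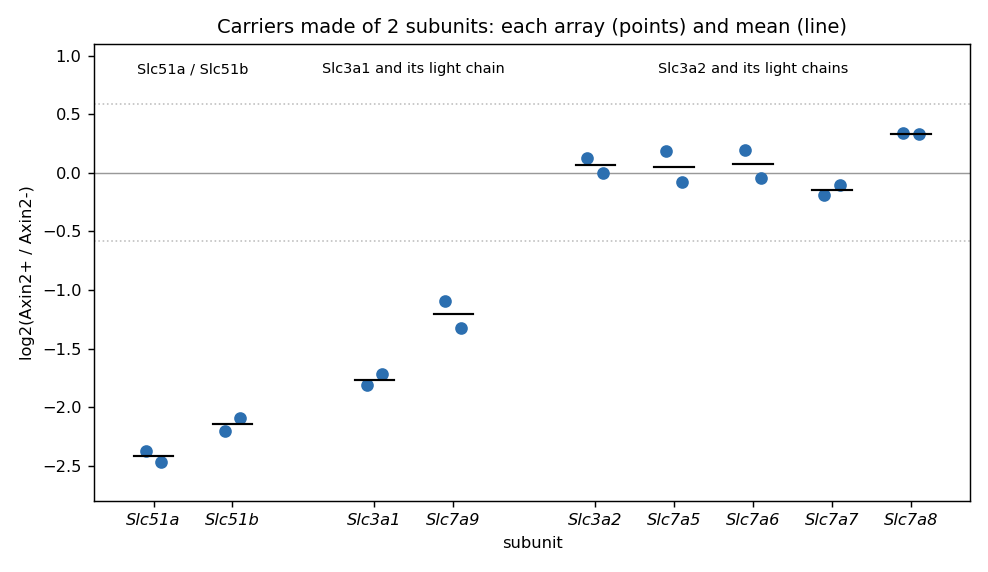
Log2(Axin2+/Axin2-) of carrier subunits (vertical axis), with 1 point per array of the same RNA, the mean as a line and dotted lines at 1.5-fold. The subunits Slc51a and Slc51b lie at -2.42 and -2.15 and Slc3a1 and Slc7a9 at -1.77 and -1.21, while Slc3a2 and its light chains lie between -0.15 and 0.33.

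The 250 bases before the RefSeq start sites of these paired subunits are shown here because the partners had like ratios (assembly GRCm38.p6, 5′ to 3′). For *Slc7a9*, which has 2 listed start sites, the window of the outer one is given.
Slc51a, chr16:32487880-32488129, minus strand: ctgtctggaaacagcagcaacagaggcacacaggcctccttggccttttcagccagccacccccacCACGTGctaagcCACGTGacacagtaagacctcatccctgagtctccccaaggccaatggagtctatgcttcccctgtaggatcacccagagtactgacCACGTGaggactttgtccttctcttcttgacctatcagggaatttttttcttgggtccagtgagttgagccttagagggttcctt
Slc51b, chr9:65422774-65423023, minus strand: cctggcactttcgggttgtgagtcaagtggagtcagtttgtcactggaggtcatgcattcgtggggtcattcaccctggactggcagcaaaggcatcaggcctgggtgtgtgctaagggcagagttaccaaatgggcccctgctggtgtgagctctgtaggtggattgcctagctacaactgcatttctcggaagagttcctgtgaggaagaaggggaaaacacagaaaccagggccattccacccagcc
Slc3a1, chr17:85028097-85028346, plus strand: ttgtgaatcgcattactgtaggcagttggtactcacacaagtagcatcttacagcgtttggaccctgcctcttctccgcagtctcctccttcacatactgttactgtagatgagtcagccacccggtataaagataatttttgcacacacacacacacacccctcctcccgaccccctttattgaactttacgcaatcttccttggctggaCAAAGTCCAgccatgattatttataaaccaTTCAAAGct
Slc7a9, chr7:35448842-35449091, plus strand: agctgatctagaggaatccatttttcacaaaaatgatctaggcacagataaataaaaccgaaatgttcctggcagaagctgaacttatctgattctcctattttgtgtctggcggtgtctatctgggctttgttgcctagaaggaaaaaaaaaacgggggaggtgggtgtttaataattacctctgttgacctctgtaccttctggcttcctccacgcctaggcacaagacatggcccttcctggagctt
Capitals mark matches, on either strand, to the letters CACGTG (an E-box), CAAAGTCCA (letters bound by HNF4), CTTTGAA (one spelling of the letters bound by TCF/LEF factors), TGATGNAAN (the amino acid response element) or the HNF1 palindrome, and CTTTGAA and CAAAGTCCA share the letters CAAAG on opposite strands. Counted from the start site, *Slc51a* held 3 E-boxes at -184, -172 and -85, and *Slc51b* held none of the motifs. *Slc3a1* held CAAAGTCCA at -39 and CTTTGAA on the opposite strand at -9, and *Slc7a9* held neither. Over 32851 start sites of all genes, 6.02% of windows held CACGTG, 0.384% CAAAGTCCA, 4.46% CTTTGAA, 3.44% TGATGNAAN and 3 windows the HNF1 palindrome. Over the 156 start sites of 119 members with an entry these were 10.9%, 0.641%, 5.13%, 2.56% and 0%. A match is a description of letters, not a binding site.

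Further amino acid carriers lay far down in Axin2+ cells. *Slc6a14* had levels of 8.45 and 8.55 in Axin2+ cells and 10.47 and 10.73 in Axin2- cells, 4.29-fold lower, and its probes had means of -2.10 and -1.96. *Slc6a8*, which imports creatine and is grouped here with its family among the amino acid carriers, had 9.53 and 9.50 against 10.95 and 10.90, 2.66-fold lower. *Slc1a1*, the glutamate carrier of epithelia, was 1.55-fold lower. Of 40 members of the amino acid families measured, 5 were past 1.5-fold lower in this way (beside 6.92% of all genes) and 3 higher (beside 7.86%). The median log2 ratio of the 40 was -0.105.

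Sugar and peptide carriers held 1 member each that was past 1.5-fold lower, of 16 and 3 measured, beside 6.92% of all genes. At any size, 10 of 16 sugar and sodium-coupled carriers were lower on both arrays and 2 higher on both. All 3 peptide carriers were lower on both. *Slc2a1*, the glucose carrier of most cells, had levels of 9.58 and 9.46 in Axin2+ cells and 10.71 and 11.03 in Axin2- cells, 2.54-fold lower. *Slc5a1*, which takes up glucose with sodium, had a mean log2 ratio of -0.22. For *Slc15a1* the Axin2+ channel was not well above background on either array, which gives only a bound: the gene was at least 2.50-fold lower. This bound was set against the probe's own dim signal, so it equals the measured ratio. Of 20 genes of glycolysis measured, 4 were past 1.5-fold lower (*Aldoa*, *Ldha*, *Pfkp* and *Pkm*), beside 6.92% of all genes. On the higher side was 1 (*Ldhb*), beside 7.86%.

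Of 12 monocarboxylate carriers, 4 were past 1.5-fold lower in Axin2+ cells. *Slc16a3*, known as the carrier that exports lactate, had levels of 6.13 and 6.65 in Axin2+ cells and 7.44 and 7.82 in Axin2- cells, 2.37-fold lower. *Slc16a1* had 11.17 and 11.35 against 12.33 and 12.13, 1.96-fold lower, and its 3 probes ranged from -1.02 to -0.69 in their means. *Slc16a5* and *Slc16a9* were 1.98-fold and 1.92-fold lower. *Slc5a8*, which carries the same short-chain fatty acids as *Slc16a1* but with sodium, had log2 ratios of -0.22 and -0.09.

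Single members of the other classes were lower as well. *Slc22a18* had levels of 11.52 and 11.51 in Axin2+ cells and 12.96 and 12.94 in Axin2- cells, 2.71-fold lower, with -1.44 and -0.79 as the means of its probes. *Slc22a23*, an orphan of the same family, was 1.91-fold lower. *Slc27a4*, a fatty acid transport protein of the intestine, was 2.24-fold lower by its brighter probe, whereas its other probe had a mean of -0.31. *Slc44a4*, which in the colon takes up thiamine pyrophosphate made by bacteria, was 1.89-fold lower, *Slc28a3*, a concentrative nucleoside carrier, 1.68-fold lower and *Slc23a2*, an ascorbate carrier, 1.63-fold lower. By its brightest probe no other vitamin or choline carrier was past 1.5-fold, and *Slc5a6*, *Slc44a1*, *Slc22a5* and *Slc29a1* had means of -0.15, 0.09, 0.01 and -0.03. For *Slc44a1* this was the brighter probe, whereas its other probe was past 1.5-fold lower (-0.76 and -1.05), so the 2 probes differed in sign.

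**Figure D4:**
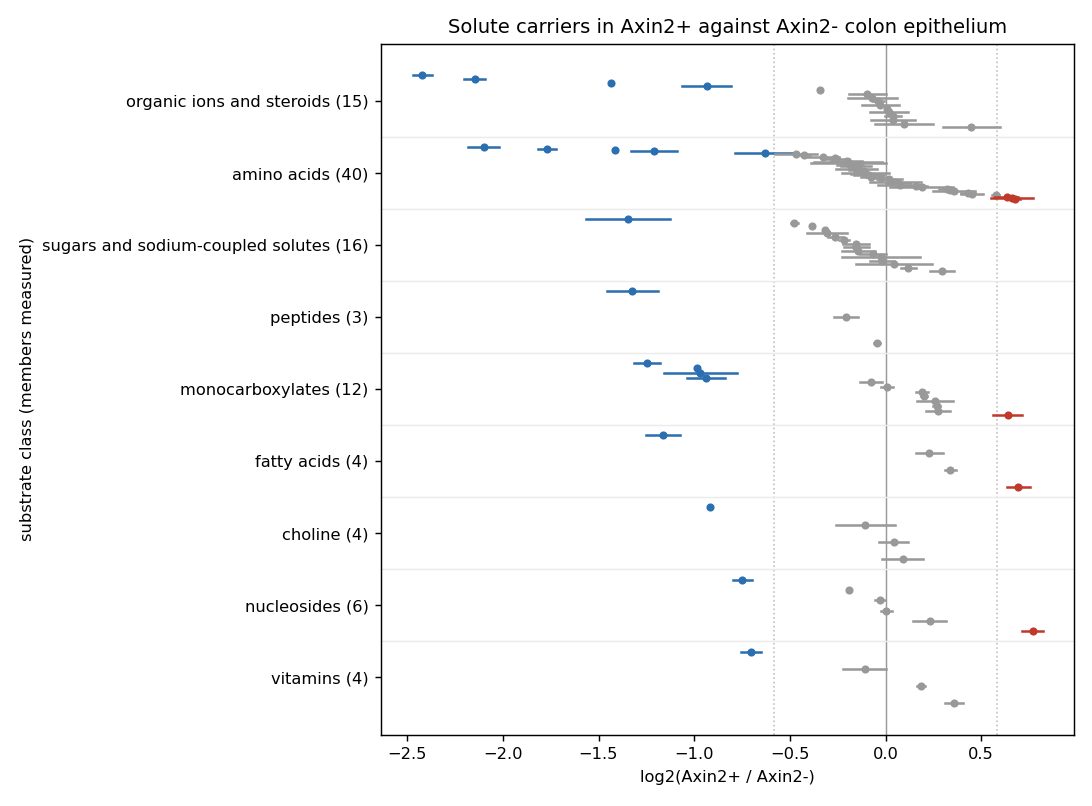
Log2(Axin2+/Axin2-) of the 104 members measured (horizontal axis), grouped by the class of substrate, with a line from one array to the other and a point at the mean. Blue members were past 1.5-fold lower and red members past 1.5-fold higher on average with the same sign on both arrays (dotted lines at 1.5-fold); 19 are blue and 6 are red, and the longest tail to the left is that of organic ions and steroids, down to -2.42.

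The 6 carriers past 1.5-fold higher in Axin2+ cells were all under 2-fold. *Slc28a2*, a sodium-coupled carrier of purine nucleosides, had levels of 8.12 and 8.05 in Axin2+ cells and 7.29 and 7.34 in Axin2- cells, 1.70-fold higher. *Slc27a2* had log2 ratios of 0.63 and 0.75, 1.62-fold higher, and a second probe of the gene had a mean of 0.28. Another 3 of the 6 import amino acids: *Slc7a1* for arginine and lysine was 1.60-fold higher, *Slc1a4* for serine, alanine and cysteine 1.58-fold and *Slc38a2* for small neutral amino acids 1.55-fold. Median centring left only *Slc27a2* and *Slc28a2* of the 6 past 1.5-fold, and the mean over a gene's probes left out *Slc7a1*, *Slc1a4* and *Slc27a2*. Of 12 members past 1.5-fold with several measured probes, 11 had all probes of like sign, and *Slc7a1* did not. The second probe of *Slc7a1* had a mean of -0.08, that of *Slc1a4* had 0.14, and the 4 probes of *Slc38a2* ranged from 0.08 to 0.96. *Slc38a1* and *Slc1a5*, which carry glutamine, had means of 0.57 and 0.45 and stayed under the limit. Of 25 genes of the amino acid response, 1 was past 1.5-fold higher (*Phgdh*, beside 7.86% of all genes) and 0 lower (beside 6.92%).

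The letters CTTTGAA were found in 2 of 6 windows before the start sites of members past 1.5-fold higher in Axin2+ cells. Entries were there for 5 of those genes. Of the windows of members past 1.5-fold lower, 1 of 19 held the letters. The windows on the higher side that hold them are those of *Slc28a2* and of the inner of 2 start sites of *Slc7a1*. They are printed with the match in capitals (GRCm38.p6).
Slc28a2, chr2:122426185-122426434, plus strand: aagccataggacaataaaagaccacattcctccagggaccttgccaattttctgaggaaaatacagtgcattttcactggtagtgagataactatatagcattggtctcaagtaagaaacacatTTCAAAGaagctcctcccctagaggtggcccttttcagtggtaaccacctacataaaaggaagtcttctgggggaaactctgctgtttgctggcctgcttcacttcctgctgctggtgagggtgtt
Slc7a1, chr5:148392816-148393065, minus strand: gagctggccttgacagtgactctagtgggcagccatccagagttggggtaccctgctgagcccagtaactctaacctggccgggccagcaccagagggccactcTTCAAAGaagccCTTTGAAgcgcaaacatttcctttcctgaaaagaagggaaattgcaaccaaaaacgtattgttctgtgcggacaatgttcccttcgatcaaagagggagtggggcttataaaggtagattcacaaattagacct
The window of the outer start site of *Slc7a1* held none. With 6 windows this is a count and not a result about the class.

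Markers of differentiated cells were lower in Axin2+ cells too. In Axin2+ cells 8 of 10 surface colonocyte markers were past 1.5-fold lower, with a median log2 ratio of -2.16 and a summed linear level of 58230 and 54170 against 183800 and 160300 in Axin2- cells, among them *Car4* (-3.12), *Aqp8* (-2.94) and *Krt20* (-2.89). The medians were -1.16 over 9 goblet cell markers and -2.22 over 8 enteroendocrine markers, while 9 of 10 crypt base markers were higher, with a median of 1.16. Of the 7 immune cell markers measured, 2 were past 1.5-fold lower, *Cd52* (-1.25) and *Coro1a* (-0.75), with a median of -0.24 and a summed level of 2151 and 2153 against 2357 and 2438. *Vim* of the 3 fibroblast markers (-0.96) and *Uchl1* of the 3 neural markers (-0.63) were lower too, and none of the 4 smooth muscle markers or the 1 endothelial marker was past 1.5-fold. Of 22 transport partners measured, 9 were past 1.5-fold lower (beside 6.92% of all genes) and 0 past 1.5-fold higher (beside 7.86%). At any size, 17 were lower on both arrays and 3 higher on both. Among the 9 were the exporters *Abcg2* (-1.47) and *Abcc3* (-1.45), the scaffold *Slc9a3r1* (-1.22) and the fatty acid binding protein *Fabp2* (-1.13). What share of the carriers' differences follows the mix of cell types was not tested.

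*Slc27a2* and *Slc6a14* were past 1.5-fold alike in both experiments, in opposite directions. *Slc27a2* was lower in *Rspo3* KO colon (-2.09) and higher in Axin2+ cells (0.69), by the same probe. *Slc6a14* was higher in *Rspo3* KO colon (0.72, limma's adjusted p = 0.681) and lower in Axin2+ cells (-2.10), by different probes, and the probe used for Axin2+ cells had 1.26 and -0.13 in the 2 KO pairs. Of the 18 members past 1.5-fold lower in Axin2+ cells and measured in both experiments, 9 were higher in both KO pairs, 2 were lower in both and 7 went opposite ways, with a median of 0.19 in KO colon. Of the 6 past 1.5-fold higher in Axin2+ cells, 2 were higher in both KO pairs, 2 lower in both and 2 opposite, with a median of 0.03. Of the 66 members that did not differ past 1.5-fold in the sorted cells, 9 were higher in both pairs and 19 lower in both, with a median of -0.02. Over all 15384 genes measured in KO colon, 3120 were higher in both pairs, 3681 lower in both and 8583 opposite. The median of all these genes was -0.01. Over all 90 members Pearson's r between the experiments was -0.21, a description across genes, which share the arrays of each experiment.

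**Figure D5:**
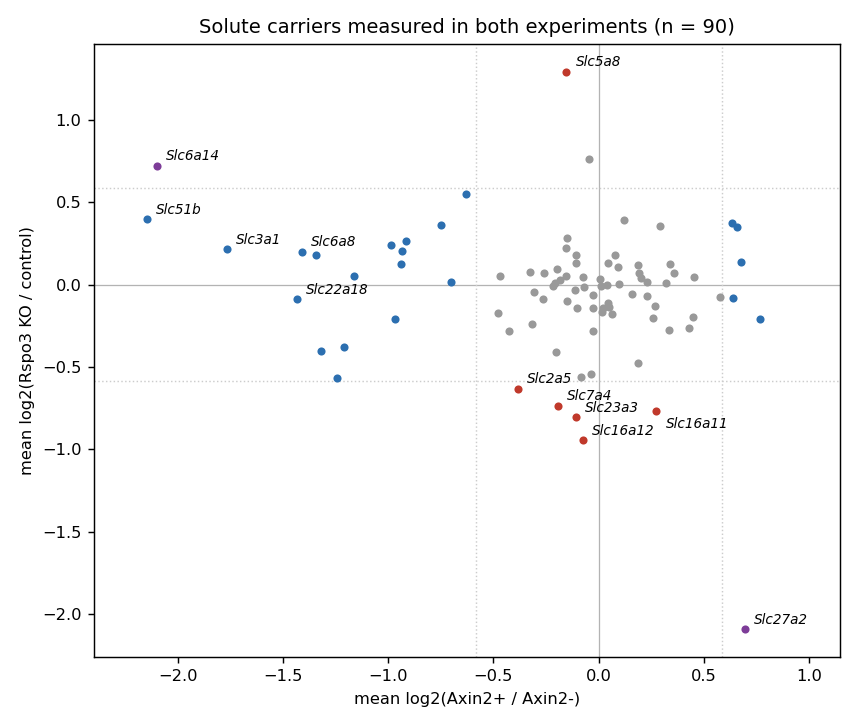
Mean log2(Axin2+/Axin2-) (horizontal axis) and mean log2(Rspo3 KO/control) (vertical axis) of the 90 members measured in both experiments, with dotted lines at 1.5-fold. Blue members were past 1.5-fold alike in the sorted cells, red members in KO colon and purple members in both; Slc6a14 (upper left) and Slc27a2 (lower right) are the purple ones.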

How the data were processed

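RNA was hybridised to 4 dual-color Agilent 4 × 44 K arrays. Per the labels, RNA of *Rspo3* KO colon was isolated with TRIzol, whereas the methods name a column kit. The authors ran Agilent's extraction software and deposited each spot's mean and background intensity in both dyes. They also deposited the log10 ratio of Cy5 over Cy3 that the software gave, and the series' table of values holds this log10 ratio again. Samples were grouped by their labels, and both arrays of an experiment lay on 1 slide.

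Background was corrected with normexp (limma 3.58.1, R 4.3.3, offset 50), and log2 ratios were normalized by loess (span 0.3) on each array. Background outliers (66 and 6 spots on the KO arrays) did not enter the background fit, a choice made with the data known. Outlier spots were left out, replicate spots were averaged per probe, and the labelled dyes set the sign of each ratio. Each gene took, in each experiment, the brightest of its probes that passed the background test. RefSeq (GRCm38.p6) named 27668 of 41174 probes by accession and 5589 by symbol and took 471 through synonyms. The other 7446 probes carry the array's name.

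For *Rspo3* KO, limma's lmFit and eBayes tested the ratio against 0. Benjamini-Hochberg adjustment covered all 15384 genes, at a threshold of 0.05, and with 1 residual and 6.78 prior degrees of freedom the error comes mostly from all genes together. The script was tested on simulated data. So few arrays limit the precision. The technical swap of the Axin2 pools was not tested. The members and lists were chosen with earlier results of these data known. Members named are those past limma's threshold or past 1.5-fold alike, the 12 largest each way, those past 1.5-fold in opposite directions, a list of 18 colon carriers and the ends of families; Slc38a1, Slc7a6, Slc7a7, Slc16a4 and single probes were named after their values were seen. The alternatives are given with their effects in the closing section. Some genes of the lists and classes are not reported here.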

Additional observations from a re-analysis of the deposited data

How the results depend on the processing

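No paired analysis was possible because there is none to add: the ratios tested are within pairs already, each from 1 KO and 1 control mouse, or the pools, on 1 array. *Slc27a2* was lower in *Rspo3* KO colon under all 9 processing alternatives and on each array (log2 ratio from -3.50 to -1.13), but limma called it under 6 of 10 settings (the software's log ratios and the series' table being the same values), with adjusted p from 2.53e-05 to 1. The count of members called, 1 in the report, was 2 with the software's log ratios or the series' table (*Slc16a4* beside *Slc27a2*), and 0 with the background fitted to all spots, with median centring, with no filter on dim probes and with the mean over a gene's probes (5, 2, 12 and 8 members at limma's unadjusted p under 0.05). Over all genes these settings called 129, 129, 1, 8, 0 and 5 genes, against 40. A fit over 4 arrays with a dye term, in which the spread also comes from the technical swap, called 5 members (*Slc16a11*, *Slc16a12*, *Slc23a3*, *Slc27a2* and *Slc5a8*) and 266 genes.

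Members past 1.5-fold alike in *Rspo3* KO colon were 8 in the report (2 higher, 6 lower), beside 4.32% of all genes. The software's log ratios or the series' table gave 16 (5 and 11), beside 9.59% of all genes. These weighted by their errors gave 13 (4 higher), beside 8.96%. The background fitted to all spots gave 5 (3 lower), beside 2.35%, without *Slc16a12*, *Slc2a5* and *Slc7a4*. At 2-fold there were 2 (1 and 1), beside 1.19%. Past 1.5-fold on each array there were 5 (3 lower), beside 2%. Median centring left 1 higher, beside 1.54%, and lost *Slc5a8* and *Slc2a5*. With each KO array left out in turn, members were counted past 1.5-fold on the other array alone, so no rule on like sign applied. These counts were 15 to 18 (beside 10.1% to 15.6% of all genes), of which 6 to 7 were higher and 9 to 11 lower. In Axin2+ cells the members past 1.5-fold alike were 25 in the report (6 higher, 19 lower), beside 14.8% of all genes. The software's log ratios or the series' table gave 44 (12 and 32), beside 32.7% of all genes. These weighted by their errors gave 43 (12 and 31), beside 32.2%. At 2-fold there were 11 (0 and 11), beside 4.22%. The higher count was 2 with median centring, beside 3.14% of all genes. It was 3 with the mean over probes (beside 5.92%) and 3 past 1.5-fold on each array (beside 6.07%). Median centring lost 7 of the 25, among them *Slc1a1*, *Slc1a4*, *Slc22a23*, *Slc38a2*, *Slc44a4* and *Slc7a1*. With each Axin2 array left out, the counts on the other array alone were 24 (beside 15% to 16% of all genes). Of these, 5 to 6 were higher and 18 to 19 lower, again with no rule on like sign. The 25 members kept their direction under all 9 processing alternatives, except that *Slc15a1* could not be measured with the filter on both channels. The median of members in Axin2+ cells was -0.16 with the software's log ratios or the series' table, -0.12 with an offset of 16, -0.0277 with no filter, and -0.0806 to -0.0267 with an array left out, and that in *Rspo3* KO colon was -0.0445 to 0.022 with an array left out. The cause of these shifts was not tested.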
